A study of Homo sapiens with 54 samples.

Results

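The subject is a set of 9 secreted or inducible mediators of inflammation, and 9 of 9 were found among 18417 genes measured on 54 arrays: IL6, CXCL8, CXCL1, CXCL2, CXCL3, LIF, IL11, CCL20 and PTGS2. Each was taken by its symbol from rows that the platform annotation ties to exactly 1 gene, and where a gene had several rows the one with the highest mean over all 54 arrays would have been used. Each of the 9 had 1 such row, so no row was chosen by its level, and that mean takes no side between groups.

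The cells were NCI-H460, an established human line from a large cell carcinoma of the lung, kept in medium without serum. A pretreatment was followed 2 h later by a therapy step, and RNA was harvested 2 h or 24 h after that step. The 18 groups of 3 arrays combine smoke extract (at 5 uM nicotine equivalent), nicotine (5 uM) or no pretreatment with radiation (6 Gy), cisplatin (1 uM) or no therapy at each of these times. All groups share the cell line and the serum-free medium, and a single line limits what they can model. The labels call the 3 samples of a group biological replicates without saying that they came from separate cultures. A p-value thus rests on the spread between samples within groups, pooled over all 18 groups.

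Interleukin-6 is a cytokine that signals through its receptor and the shared subunit gp130 to the kinases of the JAK family and the transcription factor STAT3, and LIF and IL11 are relatives that use the same shared subunit. CXCL8 (interleukin-8), CXCL1, CXCL2 and CXCL3 are chemokines that draw neutrophils through the receptor CXCR2, and CCL20 draws lymphocytes and dendritic cells through CCR6. PTGS2 encodes cyclooxygenase-2, the inducible enzyme of prostaglandin synthesis. In epithelial and tumour cells these genes are known targets of NF-kB, AP-1 and C/EBP factors, and many of their mRNAs carry AU-rich elements that shorten their life.

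Promoter sequence is shown because these genes share such factors. RefSeq promoters on GRCh38.p14, each running from 250 bases before to 50 bases after a gene's start, were found for 8 of the 9 genes, all but LIF. Capitals mark matches on either strand to a kappaB-like motif (GGNNTTTCC), an AP-1 motif (TGANTCA), a C/EBP-like motif (TTGCNNAA) and a TATA box (TATAAA), which were chosen with these promoters in view. All sequences are written 5′ to 3′ on the strand of the gene. The first 3 are the 160 bases before the start of the 3 genes described most fully below.
IL6 (chr7:22727040-22727199, plus strand): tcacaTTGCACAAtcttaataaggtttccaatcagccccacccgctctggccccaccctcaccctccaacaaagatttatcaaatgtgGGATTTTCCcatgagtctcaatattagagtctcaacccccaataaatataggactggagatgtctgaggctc
CXCL8 (chr4:73740409-73740568, plus strand): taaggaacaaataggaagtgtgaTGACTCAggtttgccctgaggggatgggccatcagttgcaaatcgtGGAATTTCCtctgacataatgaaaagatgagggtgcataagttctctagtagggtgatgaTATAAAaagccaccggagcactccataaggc
PTGS2 (chr1:186680424-186680583, minus strand): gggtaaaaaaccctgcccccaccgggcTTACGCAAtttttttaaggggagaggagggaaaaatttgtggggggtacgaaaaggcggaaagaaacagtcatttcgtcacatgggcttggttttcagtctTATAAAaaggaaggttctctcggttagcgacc

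The kappaB-like match began 72 bases before the start of IL6 and 91 bases before that of CXCL8, while the PTGS2 window held none. CXCL8 also held an AP-1 match 137 bases before its start, and IL6 and PTGS2 held C/EBP-like matches 155 and 133 bases before theirs. CXCL1, CXCL2 and CXCL3 lie in the chemokine cluster of chromosome 4, and 80 bases around their kappaB-like matches show how alike they are.
CXCL1 (chr4:73869295-73869374, plus strand): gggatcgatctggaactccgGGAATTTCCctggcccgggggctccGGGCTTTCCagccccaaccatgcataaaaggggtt
CXCL2 (chr4:74099213-74099292, minus strand): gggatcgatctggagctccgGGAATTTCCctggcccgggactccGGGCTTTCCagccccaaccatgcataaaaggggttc
CXCL3 (chr4:74038708-74038787, minus strand): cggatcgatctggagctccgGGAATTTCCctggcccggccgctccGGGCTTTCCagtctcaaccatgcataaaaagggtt

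Each of the 3 held the same pair of matches, GGAATTTCC and GGGCTTTCC. Over the whole window, 82.5% of aligned positions were identical between CXCL1 and CXCL3, 71.9% between CXCL1 and CXCL2, and 45.2% between CXCL1 and CXCL8. The kappaB-like motif was in 6 of the 8 promoters and in 6.26% of 35116 promoters of the same length, the AP-1 motif in 2 of 8 and 7.71%, the C/EBP-like motif in 3 of 8 and 10.5%, and the TATA box in 3 of 8 and 11.5%. Because the motifs were chosen with these promoters in view, and CXCL1, CXCL2 and CXCL3 share their matches, these counts are not a test of enrichment. A match describes letters and does not show that a factor bound there.

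Levels below are log2 values as deposited, errors of levels are SD over 3 arrays, and errors of changes are SE of a limma fit to all 54 arrays. A gene is called where its p-value, adjusted (Benjamini-Hochberg) across the 18417 genes tested, was under 0.05. Means over all arrays were 10.73 for CXCL1, 10.07 for CXCL8, 8.93 for LIF, 8.87 for IL6 and 7.40 for CXCL2, all above 7.04, the median of all genes. The means of IL11 (6.43), PTGS2 (6.32), CCL20 (6.02) and CXCL3 (5.84) fell below that median. The means of 341 olfactory receptor genes, which a lung line should hardly use, ran from 1.94 to 6.94 with a 95th percentile of 6.06. IL11 and PTGS2 lay above that percentile and CCL20 and CXCL3 below it, all 4 within the range. No detection calls were used here, so how far these 4 genes stood above background is not known. Probes differ in brightness, so placing a gene against the median or the olfactory receptor genes is approximate, and the mediators are not ranked against each other.

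Arrays of a group correlated with each other at 0.979 to 0.996, with 0 identical pairs. The keratin genes KRT8 (11.96), KRT18 (11.26) and KRT19 (11.54) exceeded the median of all genes, but 2 other epithelial markers, EPCAM (5.28) and CDH1 (5.07), lay within the olfactory receptor range. Of 7 leukocyte markers, 2 (CD68 and CD14) exceeded the olfactory receptor percentile, and PTPRC, the pan-leukocyte marker, averaged 3.40. The mean level of the leukocyte list ran from 5.58 to 5.78 over the 18 groups and that of the fibroblast list, with 5 of 6 above the percentile, from 6.10 to 6.44. Endothelial markers exceeded it in 0 of 4 cases, and so did the receptors CXCR1, CXCR2, CCR6 and ACKR1 in 0 of 4.

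Replicate 1 of the group given smoke extract and then cisplatin, harvested at 24 h, stood apart in these mediators. It was 1.72 above the mean of its 2 partners for IL6 and 1.67 for CXCL2 on the log2 scale, the highest and second highest of 18417 genes, with CXCL1 at 1.00 and CXCL8 at 0.75. In the other 53 arrays the largest such difference in size was 1.02 for IL6 and 0.94 for CXCL2. Both were on the same partner of that array, whose own comparison mean includes it. The array did not stand apart over all genes, because 11 genes differed by more than 1 log2 unit and 10 arrays had more such genes. Next to IL6 and CXCL2, its highest genes were NFKBIZ (1.39), EGR1 (1.30), NFKBIA (1.26), FOSB (1.09), FOS (1.07) and TNFAIP3 (1.02), named after their values were seen, which encode NF-kB regulators and immediate early transcription factors. The array was singled out after its values for these mediators were seen. P-values and call counts without it are therefore descriptions and not independent tests. For the comparisons that include this group, values without that array are given beside those with all arrays. This is done where the array ends or makes a call or moves a called value by over 1.5 times. A gene's spread is estimated once over all 18 groups, so this array also widens the IL6 and CXCL2 errors in the other comparisons. The SD of its group was 0.998 for IL6 and 0.965 for CXCL2, against median group SDs of 0.121 and 0.090. No values without that array are given for those other comparisons.

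**Figure D1:**
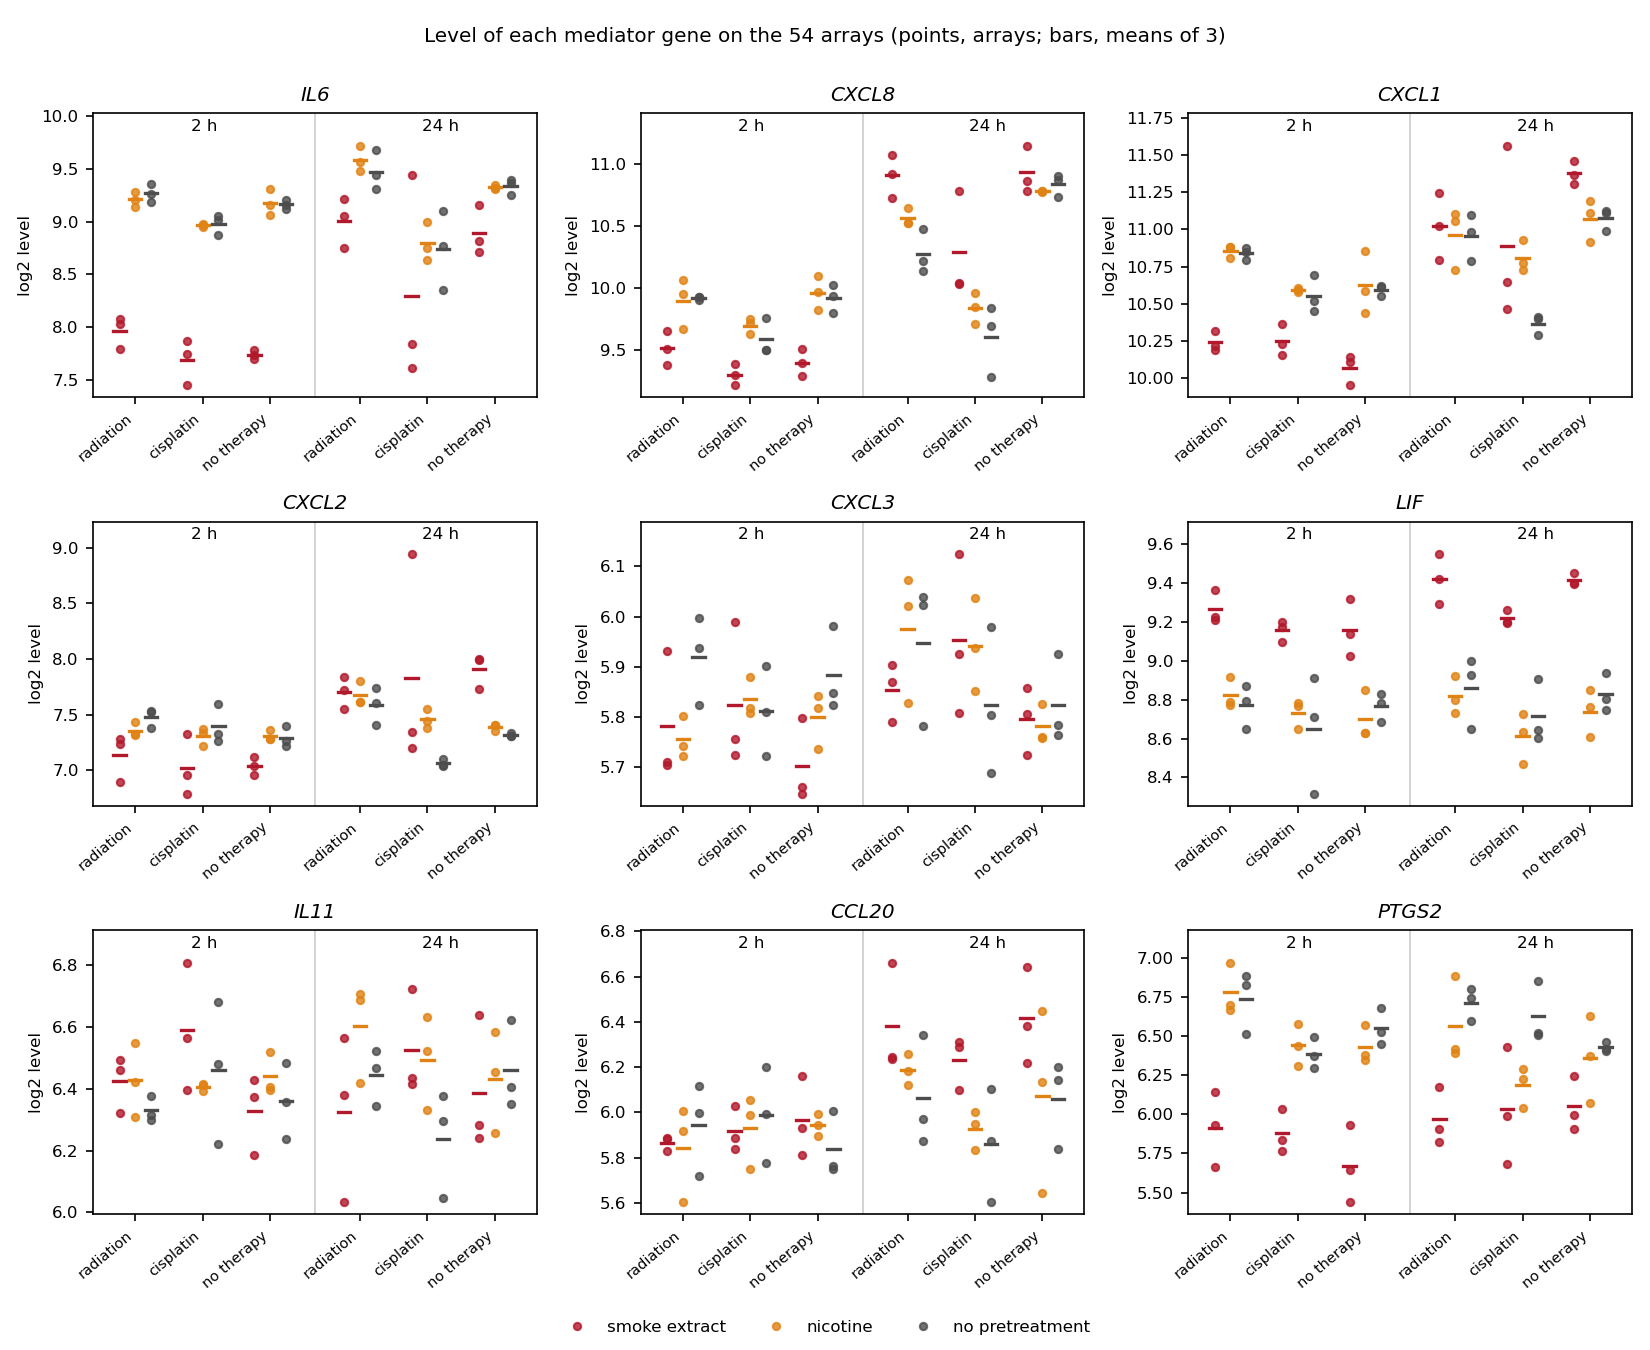
Log2 level (vertical axis) of each of the 9 genes on every array, by therapy and harvest time (horizontal axis) and pretreatment (colour), with points for arrays and bars for means of 3. The smoke extract arrays of IL6 at 2 h lie between 7.45 and 8.07, below every other 2 h array, and the highest CXCL2 point is the single array at 8.94.

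The first question was what smoke extract did to these genes. Over the 6 comparisons with cells given no pretreatment (3 therapies at 2 times), 22 of 54 gene comparisons were called, 11 higher and 11 lower, where 10.8% of all gene comparisons were called, 5.48% higher and 5.33% lower. These comparisons share control arrays with those of the other agents. LIF rose in 6 of 6, PTGS2 fell in 5 of 6, and IL6 fell in the 3 comparisons at 2 h. CXCL8 and CXCL1 were lower where called at 2 h, and CXCL8, CXCL1 and CXCL2 higher where called at 24 h.

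IL6 was at 7.79, 7.70 and 7.73 with smoke extract alone at 2 h, against 9.16, 9.21 and 9.12 in untreated cells. The groups lay far apart, with no array of either near the other. The level was 2.69-fold lower, a log2 change of -1.43 ± 0.21 (SE, n = 3 each, limma adjusted p = 3.77e-06). After radiation the change was -1.30 ± 0.21 and after cisplatin -1.29 ± 0.21, so the lower level at 2 h appeared on all 3 backgrounds. Against nicotine in place of no pretreatment the 3 changes were -1.44, -1.25 and -1.28, and these comparisons use the same smoke extract arrays. All 6 calls held when any single array of the compared groups was left out.

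At 24 h IL6 read 8.81, 9.16 and 8.71 with smoke extract alone, against 9.39, 9.37 and 9.25 in untreated cells. The groups did not overlap, but the change of -0.44 ± 0.21 was not called (adjusted p = 0.165). It was called with the compared groups alone in the model (0.00522) and with array weights (0.0145). The change was -0.47 after radiation and -0.44 after cisplatin, neither of them called, although the second was with array weights (-0.63, adjusted p = 0.00242) or without cisplatin replicate 2 (-0.64, adjusted p = 0.0253). Averaged over the 3 therapies, IL6 fell by 0.45 ± 0.12 at 24 h (adjusted p = 0.00395), against a fall of 1.34 ± 0.12 at 2 h. Without the array that stood apart, the change after cisplatin at 24 h was -1.02 ± 0.14 (adjusted p = 9.00e-07) and the 24 h average -0.64. When the model held the compared groups alone, the 24 h average of IL6 was not called (adjusted p = 0.0757).

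PTGS2 had levels of 5.64, 5.44 and 5.93 with smoke extract alone at 2 h, against 6.53, 6.68 and 6.45 in untreated cells. The groups were clear of each other, with a log2 change of -0.88 ± 0.15 (adjusted p = 6.32e-05). All 3 smoke extract arrays lay under the olfactory receptor percentile of 6.06, so no fold is given for PTGS2. PTGS2 also fell by 0.83 after radiation and by 0.51 after cisplatin at 2 h, and by 0.75 after radiation and 0.59 after cisplatin at 24 h. The last change was -0.79 ± 0.16 without the array that stood apart (adjusted p = 0.000445). Without therapy at 24 h it changed by -0.38 ± 0.15, which was not called (adjusted p = 0.0841), but was with the compared groups alone in the model (0.0154), with array weights (0.00837) and without smoke extract replicate 2 (-0.48, adjusted p = 0.0486). The call after cisplatin at 2 h was lost in 5 of 6 cases when an array was left out (adjusted p from 0.0550 to 0.142), and that after cisplatin at 24 h was lost without replicate 3 of either group (0.0651 and 0.0609).

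LIF moved the other way. With smoke extract alone it read 9.14, 9.03 and 9.32 at 2 h, against 8.83, 8.78 and 8.69 in untreated cells, a change of 0.39 ± 0.10 (adjusted p = 0.0142). At 24 h it read 9.45, 9.40 and 9.40 with smoke extract, against 8.74, 8.80 and 8.94 in untreated cells, a rise of 0.59 ± 0.10 (adjusted p = 4.63e-05). Every smoke extract array was above every untreated array at both times. The change in LIF was 0.50 and 0.51 after radiation and cisplatin at 2 h and 0.56 and 0.50 at 24 h, and against nicotine it lay between 0.43 and 0.68. The call after cisplatin at 2 h was lost with the compared groups alone in the model (adjusted p = 0.0625). The 2 h call without therapy was lost without untreated replicate 3 (0.36, adjusted p = 0.0960) or smoke extract replicate 3 (0.32, adjusted p = 0.136).

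CXCL8 at 2 h read 9.51, 9.29 and 9.40 with smoke extract alone, against 10.03, 9.94 and 9.81 in untreated cells. It fell by 0.52 ± 0.13 (adjusted p = 0.00967), and CXCL1 fell by 0.52 ± 0.14 (adjusted p = 0.0162), reading 10.11, 10.15 and 9.95 with smoke extract alone, against 10.61, 10.55 and 10.62 in untreated cells. In neither gene did the groups overlap. The CXCL8 call was lost without untreated replicate 1 (adjusted p = 0.0795) or smoke extract replicate 2 (0.0904), and the CXCL1 call without untreated replicate 1 (0.0672) or 3 (0.0649) or smoke extract replicate 3 (0.0929). After radiation CXCL1 fell by 0.60 ± 0.14, whereas CXCL8 changed by -0.41 after radiation and -0.29 after cisplatin, neither called. The first was called with the compared groups alone in the model (adjusted p = 0.00039) and with array weights (0.000226), and the second with array weights (-0.21, adjusted p = 0.0464). Averaged over therapies at 2 h, CXCL8 fell by 0.40 ± 0.08 and CXCL1 by 0.48 ± 0.08, and CXCL2 changed by -0.32 without a call. That CXCL2 average was called with the compared groups alone in the model (adjusted p = 0.00351), among genes above the median level (0.0451), with array weights (0.00279) and without replicate 1 of smoke extract and cisplatin (0.0300).

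At 24 h CXCL8 rose with smoke extract in cells that also received a therapy. It read 10.92, 10.73 and 11.07 with smoke extract and radiation, against 10.14, 10.22 and 10.47 with radiation, a rise of 0.63 ± 0.13 (adjusted p = 0.000433). It read 10.79, 10.04 and 10.05 with smoke extract and cisplatin, against 9.70, 9.29 and 9.84 with cisplatin, a rise of 0.68 ± 0.13 (adjusted p = 0.000171). Without the array that stood apart the second rise was 0.43 ± 0.12 and still called (adjusted p = 0.0142). With smoke extract alone CXCL8 differed from untreated cells by 0.09 ± 0.13 (95% interval -0.17 to 0.36), which was not called.

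CXCL2 depended on the array that stood apart. It read 8.94, 7.34 and 7.20 with smoke extract and cisplatin at 24 h, against 7.11, 7.04 and 7.04 with cisplatin, so that 1 array was far above the others and its partners just above the cisplatin group. The rise of 0.77 ± 0.20 (adjusted p = 0.00417) became 0.21 ± 0.12 without it (adjusted p = 0.207). CXCL1 behaved likewise, rising by 0.52 ± 0.14 with all arrays and differing by 0.19 ± 0.11 without that array (adjusted p = 0.219). CXCL2 also rose with smoke extract alone at 24 h, reading 7.99, 8.00 and 7.73 with smoke extract, against 7.30, 7.30 and 7.33 in untreated cells (log2 change 0.59 ± 0.20, adjusted p = 0.0304), with no overlap. That call was lost in 5 of 6 cases when an array was left out, with changes from 0.55 to 0.60 and adjusted p up to 0.103.

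Averaged over the 3 therapies at 24 h, 7 of 9 genes were called, 5 higher and 2 lower, where 27.7% of all genes were, 11.9% higher and 15.7% lower. CXCL8 (0.47), CXCL1 (0.30), CXCL2 (0.49), LIF (0.55) and CCL20 (0.35) rose, while IL6 fell by 0.45 and PTGS2 fell by 0.57. The CXCL1 average was at an adjusted p of 0.0502 with the compared groups alone in the model. Without the array that stood apart the same number, 5 higher and 2 lower, was called, with CXCL2 at 0.31 and CXCL1 at 0.19, where 25.0% of all genes were called. At 2 h the corresponding count was 5 of 9, LIF higher and IL6, CXCL8, CXCL1 and PTGS2 lower, where 9.28% of all genes were called. The difference between the smoke extract effects at 24 h and 2 h, without therapy, was itself called for IL6 (0.98 ± 0.30), CXCL8 (0.62 ± 0.18) and CXCL1 (0.83 ± 0.20), where 6.29% of all genes were called. For CXCL8 the radiation and cisplatin effects also differed between the times, where 13.0% and 0.141% of all genes were called. Over all rows of the deposited values the smoke extract differences of IL6 (0.0642) and CXCL8 (0.0569) and the radiation difference of CXCL8 (0.0592) were not called.

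**Figure D2:**
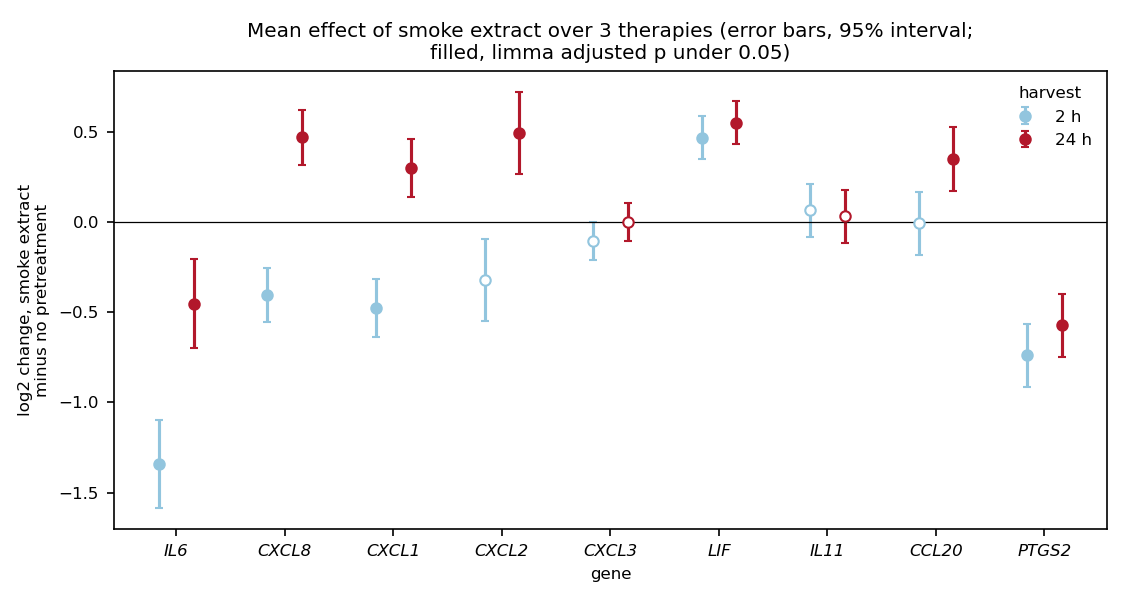
Log2 change with smoke extract minus no pretreatment (vertical axis), averaged over 3 therapies, for each gene (horizontal axis) at 2 h and 24 h. Error bars are 95% intervals and filled points had a limma adjusted p under 0.05, so that CXCL8 and CXCL1 lie below 0 at 2 h and above 0 at 24 h, LIF above and IL6 and PTGS2 below at both times.

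Nicotine at the matched 5 uM was compared next. It gave 2 called values of 54, where 2.97% of all gene comparisons were called, and both were after cisplatin at 24 h. There CXCL1 read 10.93, 10.73 and 10.77 with nicotine and cisplatin, against 10.29, 10.41 and 10.40 with cisplatin, a rise of 0.44 ± 0.14 (adjusted p = 0.0279). PTGS2 read 6.04, 6.23 and 6.29 with nicotine and cisplatin, against 6.51, 6.52 and 6.85 with cisplatin, a fall of 0.44 ± 0.15 (adjusted p = 0.0404). The groups did not overlap in either gene, but each call was lost in 5 of 6 cases when an array was left out (adjusted p up to 0.134 for CXCL1 and 0.278 for PTGS2), and the PTGS2 call also with the compared groups alone in the model (0.0527). In that comparison 17.8% of all genes were called, whereas 0 to 1 genes were called in each of the other 5 nicotine comparisons.

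Averaged over therapies, nicotine gave limma calls for 0 of 18 values, where 0% of all genes were called at 2 h and 5.21% at 24 h, and 2 of the 18 had an unadjusted p under 0.05. Its changes ran from -0.22 for PTGS2 to 0.19 for CXCL2, both at 24 h. That PTGS2 value was called with array weights (adjusted p = 0.0305) and when either of 2 arrays was left out, nicotine replicate 3 (0.0488) or nicotine and radiation replicate 1 (0.0355). The 95% interval of the IL6 change at 2 h was -0.26 to 0.23, which excludes the smoke extract change of -1.34. Smoke extract set directly against nicotine gave 17 of 54 calls, 7 higher and 10 lower, where 6.27% of all gene comparisons were called, 3.71% higher and 2.55% lower. LIF rose in 6 of 6 of these, PTGS2 fell in 4 and IL6 in 3. Of the 17 calls, 8 were lost when at least 1 array was left out, including 3 of LIF (adjusted p up to 0.0629), 2 of PTGS2 (up to 0.131), 2 of CXCL8 and 1 of CXCL1 (up to 0.145). After cisplatin at 24 h, the CXCL8 difference of 0.45 (adjusted p = 0.0312) was 0.20 ± 0.12 without the array that stood apart (adjusted p = 0.50). IL6 there differed by -0.50 with all arrays, which was not called, and by -1.07 ± 0.14 without that array (adjusted p = 3.05e-07).

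Cisplatin crosslinks DNA, and the question of what it did to the mediators centres on CXCL8. At 24 h CXCL8 read 9.70, 9.29 and 9.84 with cisplatin alone, against 10.87, 10.74 and 10.90 in untreated cells. Every cisplatin array was lower than every untreated array, by 2.35-fold on average (log2 change -1.23 ± 0.13, adjusted p = 5.98e-08). The call held when any array of either group was left out (limma adjusted p up to 5.15e-06). Cisplatin replicate 2, the lowest of its group for both CXCL8 and IL6, differed from its partners over all genes. It had 79 genes more than 1 log2 unit away from them, the most of any array. CXCL8 also fell by 0.94 ± 0.13 with cisplatin in nicotine-treated cells (adjusted p = 0.000101) and by 0.64 ± 0.13 in smoke extract-treated cells (adjusted p = 0.0264). The last value was -0.89 ± 0.12 without the array that stood apart (adjusted p = 1.61e-05). The call with all arrays was lost without smoke extract replicate 1 or 2 or cisplatin and smoke extract replicate 2 or 3, with an adjusted p of up to 0.367, and with the compared groups alone in the model (0.277).

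CXCL1 read 10.29, 10.41 and 10.40 with cisplatin alone at 24 h, against 10.99, 11.12 and 11.11 in untreated cells, a fall of 0.71 ± 0.14 (adjusted p = 0.00166) with no overlap. Over the 6 cisplatin comparisons, 4 of 54 gene comparisons were called, all lower and at 24 h, where 0.723% of all gene comparisons were called and 0.336% were lower, and 11 had an unadjusted p under 0.05. Averaged over pretreatments at 24 h, CXCL8 fell by 0.94 ± 0.08, CXCL1 by 0.49 ± 0.08 and IL6 by 0.57 ± 0.12, 3 of 9 genes where 5.03% of all genes were called and 3.22% were lower. Without the array that stood apart 4 of 9 fell, where 5.41% of all genes were called: IL6 by 0.77 ± 0.08, CXCL8 by 1.02 ± 0.07, CXCL1 by 0.60 ± 0.06 and CXCL2 by 0.27 ± 0.06 (adjusted p = 0.00522). CXCL2 changed by -0.09 with all arrays, without a call. With all arrays, the IL6 call was lost when the model held the compared groups alone (adjusted p = 0.0626). IL6 read 8.77, 8.35 and 9.10 with cisplatin alone, against 9.39, 9.37 and 9.25 in untreated cells, and this single change of -0.60 ± 0.21 was not called (adjusted p = 0.0996) although the groups did not overlap. With array weights it was (-0.56, adjusted p = 0.00324).

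With smoke extract as the background, cisplatin gave 1 call of 9 at 24 h with all arrays and 4 of 9, all lower, without the array that stood apart. The change of IL6 was -0.60 with all arrays and -1.17 ± 0.14 without that array, that of CXCL1 -0.49 and -0.82 ± 0.11, and that of CXCL2 -0.08 and -0.63 ± 0.12. Over all genes 0.0814% were called with all arrays, 0.0760% lower, and 0.0597% without that array. The values without it rest on 2 arrays of that group.

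**Figure D3:**
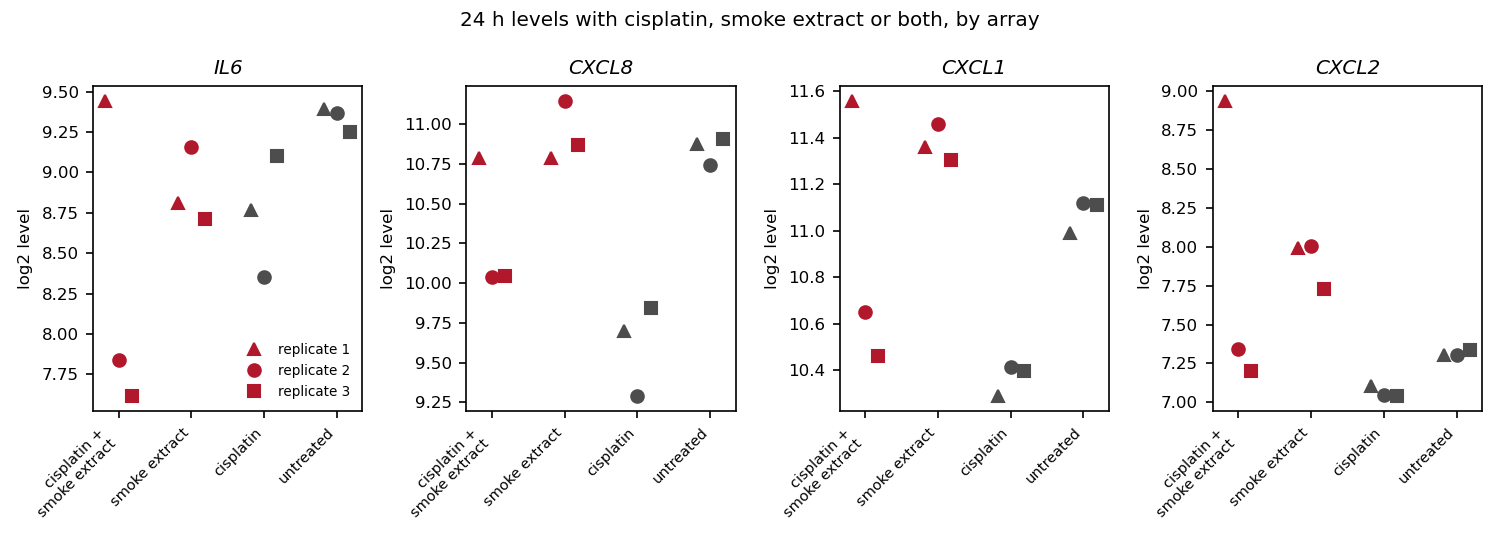
Log2 level (vertical axis) at 24 h of IL6, CXCL8, CXCL1 and CXCL2 on each array of 4 groups (horizontal axis), with the replicate number as the marker. Replicate 1 of cisplatin with smoke extract, the leftmost triangle in each panel, reads 9.44, 10.79, 11.56 and 8.94 in these genes, above both of its partners.

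Radiation gave 1 call of 54, where 8.53% of all gene comparisons were called and 4.65% were lower, and 4 values had an unadjusted p under 0.05. The called gene was again CXCL8, which read 10.14, 10.22 and 10.47 with radiation alone at 24 h, against 10.87, 10.74 and 10.90 in untreated cells, a fall of 0.56 ± 0.13 (adjusted p = 0.00105). With nicotine the change was -0.21 and with smoke extract -0.02, neither called. IL6 differed by 0.14 ± 0.21 with radiation alone (95% interval -0.29 to 0.56), and PTGS2 by 0.29, which was called only with the compared groups alone in the model (adjusted p = 0.0404). In the same comparison, where CXCL8 was 1 call of 9, 21.0% of all genes were called.

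Set against cisplatin, radiation gave higher levels in 7 of 54 gene comparisons, all at 24 h, where 6.28% of all gene comparisons were called and 2.83% were higher. IL6 was higher by 0.73, 0.79 and 0.71 without pretreatment, with nicotine and with smoke extract, and CXCL8 by 0.67, 0.72 and 0.62. CXCL1 was higher by 0.59 without pretreatment. The IL6 arrays were 9.31, 9.44 and 9.68 with radiation alone, against 8.77, 8.35 and 9.10 with cisplatin alone, and did not overlap. That IL6 call was lost without radiation replicate 3 (0.63, adjusted p = 0.0533) or cisplatin replicate 2 (0.54, adjusted p = 0.0847). With smoke extract the IL6 call was lost without replicate 1 or 3 of the radiation group or 2 or 3 of the cisplatin group (adjusted p up to 0.332). With the compared groups alone in the model, neither IL6 (0.367) nor CXCL8 (0.0621) was called in those smoke extract-treated cells. With smoke extract the IL6 difference was 1.28 ± 0.14 and the CXCL8 difference 0.87 ± 0.12 without the array that stood apart. In that setting CXCL1 (0.47 ± 0.11, against 0.13 with all arrays) and CXCL2 (0.43 ± 0.12, against -0.12) were called too, 4 of 9 where 8.52% of all genes were called.

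Whether a pretreatment changed the response to a therapy was tested as an interaction. It gave 0 calls of 72 with limma, where 0.341% of all gene comparisons were called, and 4 values had an unadjusted p under 0.05. CXCL8 came nearest. The effect of smoke extract on it at 24 h was larger by 0.54 ± 0.18 after radiation (95% interval 0.17 to 0.91, unadjusted p = 0.00562, above the threshold once adjusted) and by 0.59 ± 0.18 after cisplatin (0.21 to 0.96, adjusted p = 0.0977) than without therapy. Without the array that stood apart the second value was 0.34 ± 0.16 (adjusted p = 0.322), while without replicate 2 of cisplatin and smoke extract it was called (0.71, adjusted p = 0.0493). The first was called without radiation replicate 3 (0.63, adjusted p = 0.0307). With array weights both were called (0.65, adjusted p = 0.00108, after radiation and 0.48, adjusted p = 0.0313, after cisplatin). Whether the falls of CXCL8 with cisplatin, 1.23 without pretreatment and 0.64 with smoke extract, differ thus depended on these settings.

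**Figure D4:**
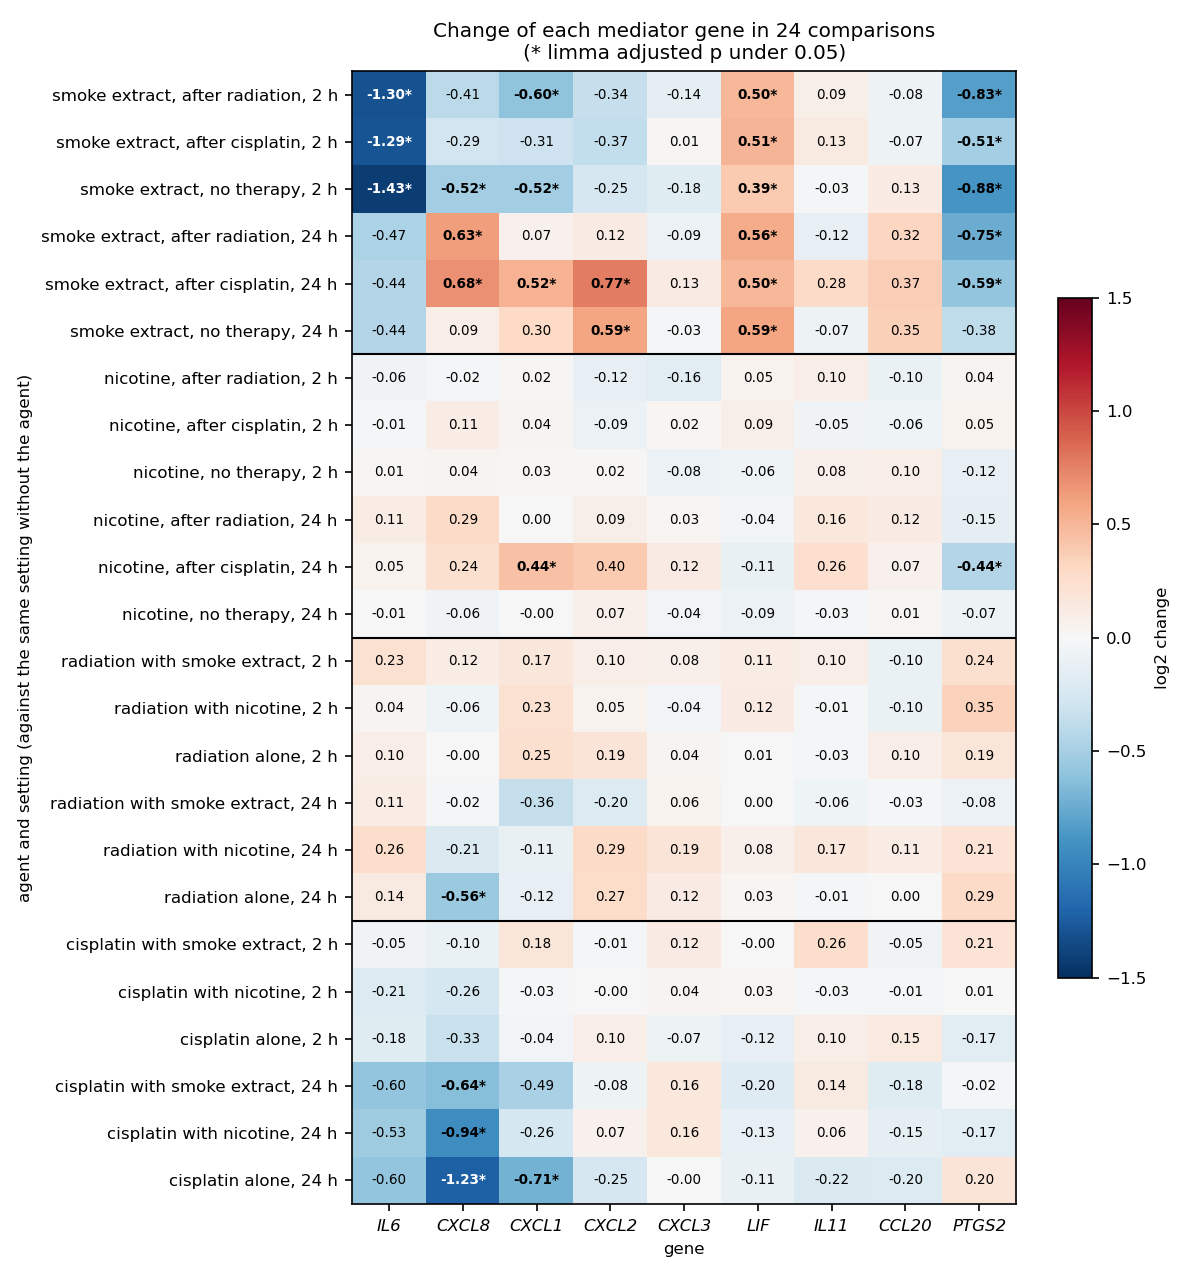
Log2 change of each gene (columns) with smoke extract, nicotine, radiation or cisplatin against the same setting without it (rows), where colour and number give the change and a star marks a limma adjusted p under 0.05. The deepest blue cells are IL6 with smoke extract at 2 h (-1.43, -1.30 and -1.29) and CXCL8 with cisplatin alone at 24 h (-1.23).

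Levels at 24 h were set against those at 2 h in each of the 9 treatments. All 19 calls of 81 were higher at 24 h, where 24.1% of all gene comparisons were called and 11.7% were higher. CXCL8 was called in 7 of 9 treatments, all but cisplatin alone (0.02) and cisplatin with nicotine (0.14). The call with radiation alone (0.36) was lost in 4 of 6 cases when an array was left out (adjusted p up to 0.156). It read 10.87, 10.74 and 10.90 at 24 h in untreated cells, against 9.92 ± 0.11 at 2 h (SD, n = 3), a 1.89-fold rise, and the rise was 2.89-fold with smoke extract alone. IL6 was 2.23-fold higher at 24 h than at 2 h with smoke extract alone and 2.06-fold higher with smoke extract and radiation, and CXCL1 was 2.48-fold higher with smoke extract alone. With smoke extract and cisplatin IL6 rose by 0.61 with all arrays (adjusted p = 0.0238) and differed by 0.04 ± 0.14 without the array that stood apart. CXCL2 in that treatment rose by 0.80 with all arrays and differed by 0.25 ± 0.12 without it (adjusted p = 0.118). CXCL1 there rose by 0.64 with all arrays and by 0.31 ± 0.11 without it (adjusted p = 0.0304). CCL20 rose with smoke extract alone (0.45 ± 0.15) and with smoke extract and radiation (0.51 ± 0.15). The first call was lost in 3 of 6 cases when an array was left out (adjusted p up to 0.146) and the second without smoke extract and radiation replicate 3 at 24 h (0.0626). Of the 19 calls, 7 were lost when at least 1 array was left out.

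CXCL3 and IL11 had no call in any of the 65 comparisons, with 4 and 5 values at an unadjusted p under 0.05. Under at least 1 alternative setting 7 CXCL3 values and 4 IL11 values were called, and the matching share over all genes is not given here. CXCL3 changes ran from -0.18 to 0.22 and IL11 changes from -0.32 to 0.36, and both genes were among those below the median level. CXCL3 arrays read between 5.65 and 6.12 throughout, within the olfactory receptor range. CXCL1, CXCL2 and CXCL3 are close paralogs, and cross-hybridization between their probes was not tested.

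Ordered by level, IL6 group means ran from 9.59 with nicotine and radiation at 24 h down to 7.69 with smoke extract and cisplatin at 2 h. The 3 lowest groups were the smoke extract groups at 2 h. CXCL8 ran from 10.93 with smoke extract alone at 24 h to 9.30 with smoke extract and cisplatin at 2 h, and CXCL1 from 11.38 with smoke extract alone at 24 h to 10.07 with smoke extract alone at 2 h. LIF ran from 9.42 with smoke extract and radiation at 24 h to 8.61 with nicotine and cisplatin at 24 h, and its 6 highest groups were the 6 smoke extract groups. Most neighbours in these orders overlapped. Of 17 neighbouring pairs, 1 was clear of overlap for IL6, 2 for CXCL8, 3 for CXCL1, 2 for LIF and 0 for each of the others. The same counts were not made over all genes. Here and above, a lack of overlap describes the arrays and is not a test.

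The genes were compared with each other over the 18 group means, as a description of groups that share arrays, time and agents. Pearson's r was 0.91 for CXCL8 and CXCL1, 0.84 for CXCL1 and CXCL2, 0.82 for CXCL2 and CCL20 and 0.81 for IL6 and PTGS2. LIF ran against PTGS2 (-0.72) and IL6 (-0.53). Within groups, over the deviations of all 54 arrays from their group means, IL6 went with CXCL8 (0.84) and CXCL2 (0.78) and CXCL1 went with CXCL2 (0.79). Without the array that stood apart these were 0.77, 0.23 and 0.44, so that the likeness of CXCL2 to the other 2 genes rested largely on it, whereas the group mean correlations above were 0.90, 0.87, 0.70 and 0.83.

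**Figure D5:**
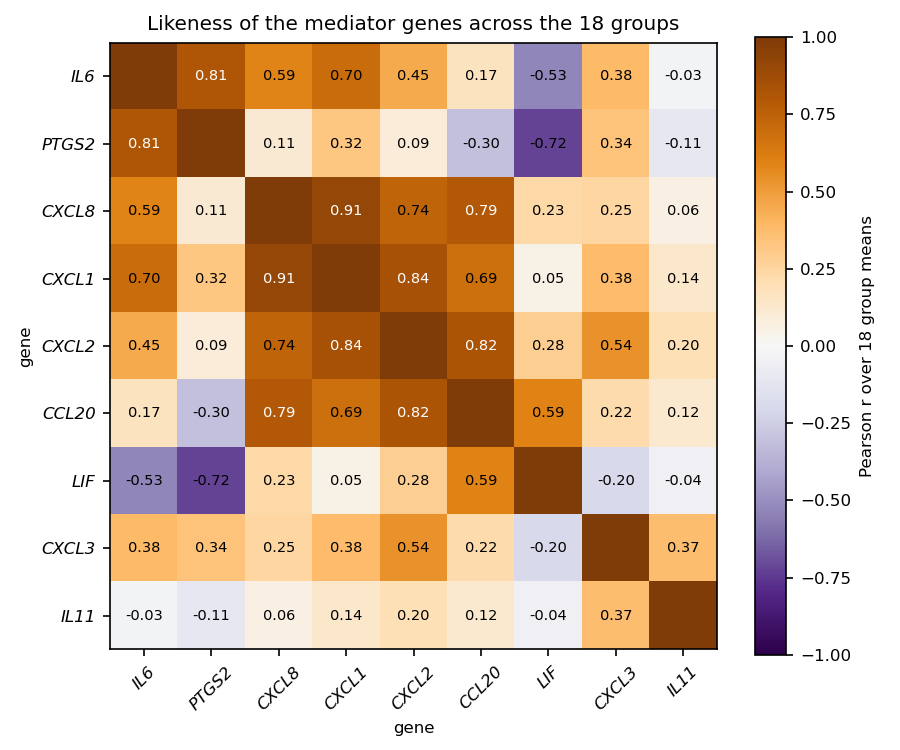
Pearson's r over the 18 group means (colour and number) between each pair of the 9 genes (both axes). The 4 chemokines CXCL8, CXCL1, CXCL2 and CCL20 form a block with r from 0.69 to 0.91, IL6 pairs with PTGS2 at 0.81, and LIF is at -0.72 with PTGS2. The lowest r of that block, between CXCL1 and CCL20, was 0.59 without the array that stood apart.

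Among 9207 or 9208 genes above the median level, the 3 whose 18 group means were most like each gene's were named. For IL6 these were EDN1 (r = 0.95), which encodes the peptide endothelin-1, ZEB2 (0.91), a transcriptional repressor, and NR4A1 (0.89), an orphan nuclear receptor. For CXCL8 they were CXCL1, TAPBP (0.89) and CCN1 (0.88), and for CXCL1 they were CXCL8, CCN1 (0.86) and CCN2 (0.85), the CCN genes encoding matricellular proteins. For LIF they were IL1A (0.97), the alarm cytokine interleukin-1 alpha, STC2 (0.95) and CEMIP2 (0.94), and for PTGS2 they were FOXA1 (0.94), a forkhead transcription factor, NUAK2 (0.93) and PRICKLE1 (0.93). For CXCL2 they were FZD8 (0.87), TRIM44 (0.85) and CIC (0.85), and for CCL20 TBC1D19, PTPRS and BST1 (0.88 to 0.89). CXCL3 and IL11, which had no call in any comparison, also had such genes. They were CACFD1 (0.81), FOXC2 (0.80) and ZNF219 (0.79) for CXCL3, and IGFALS (0.80), MIR320A (0.77) and PYY2 (0.76) for IL11. CIC was at 0.78 with CXCL2 when the array that stood apart was left out.

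The receptors and signalling genes of the IL6 family were measured for 12 genes. With smoke extract alone at 2 h, JAK2 (0.58 ± 0.14) and the receptor gene IL6R (0.34 ± 0.07) rose, while SOCS3, a feedback inhibitor of JAK signalling, fell by 0.42 ± 0.08 and the receptor gene LIFR fell by 0.39 ± 0.08. These 4 calls, 2 in each direction, compare with 3.77% of all genes. At 24 h the count was again 2 and 2, with IL6ST, which encodes gp130, up 0.43 and STAT3 up 0.34, and LIFR and SOCS3 lower by a log2 change of -0.38 and -0.34, where 16.1% of all genes were called. The list's median change was 0.13 at 24 h, against 0.01 over all genes. With radiation alone at 24 h, 6 of 12 rose and 1 fell, led by LIFR (0.58), STAT3 (0.51), IL6ST (0.34) and JAK1 (0.34), where 21.0% of all genes were called. With cisplatin alone LIFR (0.35), JAK1 (0.24) and OSMR (0.22) rose and 0 fell, where 3.80% were called.

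NF-kB subunits and feedback targets were measured for 17 genes. With smoke extract alone at 2 h, the early response gene IER3 read 10.35 ± 0.06, against 9.36 ± 0.09 in untreated cells, and rose by 0.99 ± 0.14, and REL, a subunit, rose by 0.40. TNFAIP3, whose product A20 restrains NF-kB, fell by 0.82 ± 0.12, 3 of 17 where 3.77% of all genes were called. At 24 h, 6 of 17 rose and 2 fell, with TNFAIP2 (0.66), IER3 (0.47) and BCL3 (0.40) higher and TNFAIP3 lower (-0.80), where 16.1% of all genes were called. The list's median was 0.23, against 0.01 over all genes. With cisplatin alone at 24 h, 2 fell and 0 rose, IER3 by 0.48 and NFKBIB by 0.32, where 3.80% of all genes were called. With radiation alone TNFAIP3 (0.59) and TNFAIP2 (0.37) rose while NFKBIB fell by 0.33, 3 of 17 where 21.0% of all genes were called.

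Among C/EBP, CREB and AP-1 factors, FOSL2 (0.51) and FOSL1 (0.40) rose and CREB1 fell by 0.44 with smoke extract alone at 2 h, 3 of 13 where 3.77% of all genes were called. At 24 h FOSL1 rose by 0.46 while JUNB fell by 0.41, CEBPG by 0.40 and CREB1 by 0.34, 4 of 13 where 16.1% of all genes were called. Of 10 genes of AU-rich mRNA decay, 0 were called at 2 h, and at 24 h TIAL1 (0.37) and CNOT1 (0.16) rose and ZFP36, whose product tristetraprolin binds AU-rich elements, fell by 0.41, 3 of 10 against the same 16.1%. ZFP36 also fell by 0.57 ± 0.13 with cisplatin alone at 24 h, read at 7.51 ± 0.10 with cisplatin, against 8.08 ± 0.13 in untreated cells.

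Of 17 other chemokines, 3 exceeded the olfactory receptor percentile (CXCL5, CXCL16 and CX3CL1), and the single call with smoke extract alone at 24 h was a fall of CXCL5 by 0.42, where 16.1% of all genes were called. Of 11 other cytokines of the NF-kB programme, 2 rose with smoke extract alone at both times and 0 fell, and these were IL1A (1.83 at 2 h and 2.65 at 24 h) and IL1B (0.71 and 1.26), against 3.77% of all genes at 2 h and 16.1% at 24 h. The mean of IL1B over all arrays was 5.74, under the olfactory receptor percentile of 6.06, and its highest array was 8.11. Of 15 prostaglandin genes, 0 were called at 2 h, and at 24 h PTGER4, a prostaglandin receptor gene, rose by 0.60 and ABCC4, which exports prostaglandins, by 0.28, while PTGS2 itself was lower without a call (-0.38), so that 2 of 15 stood against 16.1% of all genes. With radiation alone at 24 h, HPGD, which degrades prostaglandins, rose by 0.48. Its mean over all arrays was 4.62 and its highest array 5.27, under the olfactory receptor percentile of 6.06. PTGES3, ABCC4 and PTGES2 fell by 0.62, 0.26 and 0.18, so that 4 of 15 were called where 21.0% of all genes were. In the same smoke extract comparisons the marker gene KRT19 fell by 0.27 at 2 h and 0.40 at 24 h, 0 of 7 leukocyte markers were called, and 1 of 6 fibroblast markers, LUM, rose at 24 h (0.61). The part of these markers in the results was not tested. In such bulk RNA, fewer cells making a transcript and less of it per cell cannot be told apart.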

How the data were processed

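The deposited log2 values of 54 one-colour Affymetrix arrays were used as the authors made them. Per the submitters' processing notes they used Affymetrix Power Tools 1.15.0. How probes were summarized and arrays normalized is not given in the sources used here. Values ran from 0.89 to 13.81, from which base 2 was inferred. The labels' protocols name multi-well plates and do not say which culture lay on which, so plate was not tested as a batch.

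Of 33297 rows, 19460 had 1 gene symbol, 1754 several and 12083 none in the platform annotation, which gave 18417 genes. There were 0 unused sample columns. A model of 18 group means was fitted with limma 3.58.1 in R 4.3.3 with data.table version 1.17.8, with eBayes and an intensity trend, 36 residual degrees of freedom and two-sided p-values adjusted by Benjamini-Hochberg in each of 65 comparisons. With 3 arrays a group, array number sets the precision. The method was tested on simulated data for smoke extract alone at 24 h, with 200 changed genes. Of changes of 0.5 log2 units 67% were called, and of changes of 1 log2 unit 99%, with 8 false calls. A change near 0.5 can thus go uncalled.

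Named genes were all 9 mediators, up to 4 called genes with the largest change from each list, and the 3 genes most like each mediator among genes above the median level. The mediators, lists and tests were chosen with earlier results of these data known. Alternatives were quantile normalization, eBayes without trend, only the compared groups, all rows, genes above the median level, array weights, a replicate block and leaving out each array. For a single value, only left-out arrays of the compared groups were considered. The ranges of call counts took in each of the 54 left-out arrays.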

Additional observations from a re-analysis of the deposited data

Results flagged for a closer look

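For 3 genes, an agent given alone had an effect at 24 h that differed from its effect at 2 h by a test of the difference itself (limma, adjusted over all genes). The difference of the smoke extract effect, 24 h minus 2 h, was 0.98 ± 0.30 for IL6 (adjusted p = 0.0379), 0.62 ± 0.18 for CXCL8 (0.0345) and 0.83 ± 0.20 for CXCL1 (0.00733). For CXCL8 the radiation effect differed by -0.56 ± 0.18 (0.0350) and the cisplatin effect by -0.90 ± 0.18 (0.0244), with the untreated arrays shared by all 3 differences. In the smoke extract comparison 6.29% of all genes were called, in the radiation comparison 13.0% and in the cisplatin comparison 0.141%. When each of 12 arrays was left out in turn, the IL6 call was lost in 11 cases (adjusted p from 0.0560 to 0.0932), the CXCL8 calls in 8 for smoke extract, 8 for radiation and 6 for cisplatin, and the CXCL1 call in 0. The highest adjusted p for CXCL8 was 0.110 without smoke extract replicate 2 at 2 h, 0.108 without radiation replicate 1 at 24 h and 0.158 without cisplatin replicate 2 at 24 h. Leaving out untreated arrays ended these calls too, with the IL6 call at 0.0841 without untreated replicate 2 at 2 h.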

How the results depend on the processing

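Of 93 called values, 61 kept their call when any array of the compared groups was left out, and 32 lost it in at least 1 such case. Quantile normalization kept 89, eBayes without trend 92, only the compared groups 77, all rows 85, genes above the median level 78 of 78, array weights 93 and the replicate block 93. With the replicate block no count of calls changed by more than 1.5 times, and smoke extract against no pretreatment gave 23 calls (22 without the block). Replicate numbers did not pair the arrays on average. The mean correlation of deviations was 0.018 over 459 same-numbered pairs, against -0.0095 for differently numbered pairs. Of the same-numbered pairs 34.0% exceeded 0.1 and the lowest was -0.73, and this share was not computed for the other pairs. Pairing within some of the groups was not tested. A single value changed sign with a call, CXCL2 with smoke extract at 24 h, radiation minus cisplatin, which was -0.12 with all arrays, 0.43 without replicate 1 of cisplatin with smoke extract and -0.44 without replicate 3 of that group, its range over left-out arrays. Array weights gave 4 calls for nicotine (2 without weights), 28 for smoke extract against nicotine (17), 4 for radiation (1), 10 for cisplatin (4), 15 for radiation against cisplatin (7), 32 for 24 h against 2 h (19), 4 for the interaction (0) and 9 for effects at 24 h minus 2 h (5). Nicotine gave 1 call with all rows or with genes above the median level. Only the compared groups gave 3 calls for radiation and 9 for effects at 24 h minus 2 h, for which quantile normalization gave 3 and all rows 2. Leaving out 1 array gave 0 to 3 calls for nicotine, 1 to 2 for radiation, 3 to 9 for cisplatin, 0 to 1 for the interaction and 1 to 7 for effects at 24 h minus 2 h. The shares of all genes called under these settings are not given here. These counts therefore cannot be told apart from a general shift in calls. The cause of these shifts was not tested. Another row for a gene could not be tried, because each gene had 1 row. CXCL3, IL11, CCL20 and PTGS2 averaged below the median of all genes, and how far they stood above background is not known.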
